A study of Mus musculus with 6 samples.

Results

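The ADAMTS family are secreted zinc metalloproteases that carry thrombospondin type 1 repeats and work in the extracellular matrix. The genes described here were fixed by name: Adamts1, Adamts2, Adamts3, Adamts4, Adamts5, Adamts6, Adamts9, Adamts10, Adamts12 and Adamts14, which are 10 of the 22609 gene symbols in a table of raw read counts. All 10 were found in the table. The counts came from laser-captured mandibular condyles of CD-1 mice at postnatal day 7. The mice carried no labelled allele or treatment. The articular zone, the superficial layer of the condyle, was sampled by 3 libraries, numbered 2, 3 and 4, and the mature zone, the chondrocyte layer beneath it, by 2 libraries, numbered 2 and 3. A further mature zone library, numbered 4, was set aside by the authors for poor mapping and was not analysed here. Each library was made from 25 to 30 pooled sections. The labels call the pools biological replicates and do not give the animals in each, so p-values measure the spread between these pools only.

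The members differ in what they cut. Adamts2, Adamts3 and Adamts14 encode the procollagen N-proteinases, which remove the amino propeptide of fibrillar procollagens so that fibrils can form. Adamts1, Adamts4, Adamts5 and Adamts9 encode proteases of aggrecan and versican, the large proteoglycans that bind hyaluronan, and ADAMTS5 is known as the main aggrecanase of mouse cartilage. Adamts6 and Adamts10 encode a pair of close relatives linked to fibrillin microfibrils. Adamts12 belongs with Adamts7 to a pair known to cut cartilage oligomeric matrix protein (COMP). Many family members are made as proenzymes that furin-type convertases cleave, and some are restrained by TIMP3 and taken up through LRP1.

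The sequence that the 10 genes share is the zinc-binding site of the protease domain. It is shown because likeness at this site follows most of the functional groups used below. Each line gives the 36 coding bases of the site, 5′ to 3′, from the longest coding transcript of GENCODE M21 (GRCm38, the mm10 assembly), with the codons of the histidines that bind zinc in capitals.
Adamts2: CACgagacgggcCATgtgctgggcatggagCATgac
Adamts14: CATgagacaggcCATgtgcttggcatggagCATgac
Adamts3: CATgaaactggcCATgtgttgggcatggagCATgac
Adamts1: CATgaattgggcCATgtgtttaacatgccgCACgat
Adamts9: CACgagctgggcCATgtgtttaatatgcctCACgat
Adamts4: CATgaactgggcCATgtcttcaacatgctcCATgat
Adamts5: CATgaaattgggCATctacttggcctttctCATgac
Adamts6: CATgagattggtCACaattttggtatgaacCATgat
Adamts10: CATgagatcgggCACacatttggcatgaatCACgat
Adamts12: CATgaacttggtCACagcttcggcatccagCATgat
The procollagen N-proteinases were the most alike, with 33 of 36 identical bases between Adamts2 and Adamts14 and 32 between Adamts3 and either of them. Adamts1 shared 31 bases with Adamts9 and 30 with Adamts4. Adamts6 shared 29 with Adamts10. Adamts5 stood apart from the other proteases of aggrecan, with 21 bases shared with Adamts4, against 25 with Adamts3 and 25 with Adamts14. In every member the site crosses an exon junction, for example exons 7 and 8 of Adamts2, exons 8 and 9 of Adamts3 and exons 9 and 10 of Adamts10.

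The articular zone libraries held 15449883 to 18884685 counts in all and the mature zone libraries 15555620 to 16302047. Of 10 chondrocyte markers, the edgeR test given below called 9 lower in the articular zone, against 1.85% of all tested genes. The other, Col2a1, was also lower in every articular zone library but did not pass (edgeR adjusted p = 0.0896). The summed level of the 10 markers was 1614 to 2889 CPM in the articular zone, against 22102 and 36885 CPM in the mature zone. Markers of the articular surface were less distinct. The same test called 1 of 7 higher (Dpt), against 1.14% of all tested genes, and Prg4, the lubricin gene, had 32, 11 and 57 counts against 11 and 0. Skeletal muscle genes set both replicate 2 libraries apart, at 949 CPM in articular zone 2 against 33.1 and 14.3 in articular zones 3 and 4, and at 814 CPM in mature zone 2 against 59.6 in mature zone 3. Levels are given as CPM, which is the count scaled to the TMM-adjusted size of the library, and values follow the order of the replicate numbers. Because each library is bulk RNA, fewer cells of a type and less RNA per cell cannot be told apart.

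None of the 10 ADAMTS genes passed an adjusted p of 0.05 in edgeR's quasi-likelihood test of the articular against the mature zone over 13119 genes. That test called 393 genes, 3.00%, with 1.14% higher and 1.85% lower in the articular zone. At an unadjusted p under 0.05 there were 4 members, Adamts2, Adamts6 and Adamts10 with higher and Adamts3 with lower values in the articular zone, where 20.1% of all tested genes had such a p. DESeq2 called the same 4, against 13.7% of all tested genes. Limma-voom called Adamts3 alone, against 3.13% of all tested genes. The zones did not overlap in 5 members, of which 4 had all their higher values and 1 all its lower values in the articular zone. Over all tested genes 38.7% were separated in this way, 21.1% higher and 17.6% lower. Testing needed 10 or more counts in 2 or more libraries, which Adamts2 and Adamts6 reached through the articular zone alone. The filter thus favoured higher values there, and nothing is read from the direction of Adamts2 and Adamts6 in these counts. The median log2 fold change of the articular over the mature zone was 0.54 for the 10 members, also with Adamts6 at its lower bound, and 0.07 for all tested genes.

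**Figure D1:**
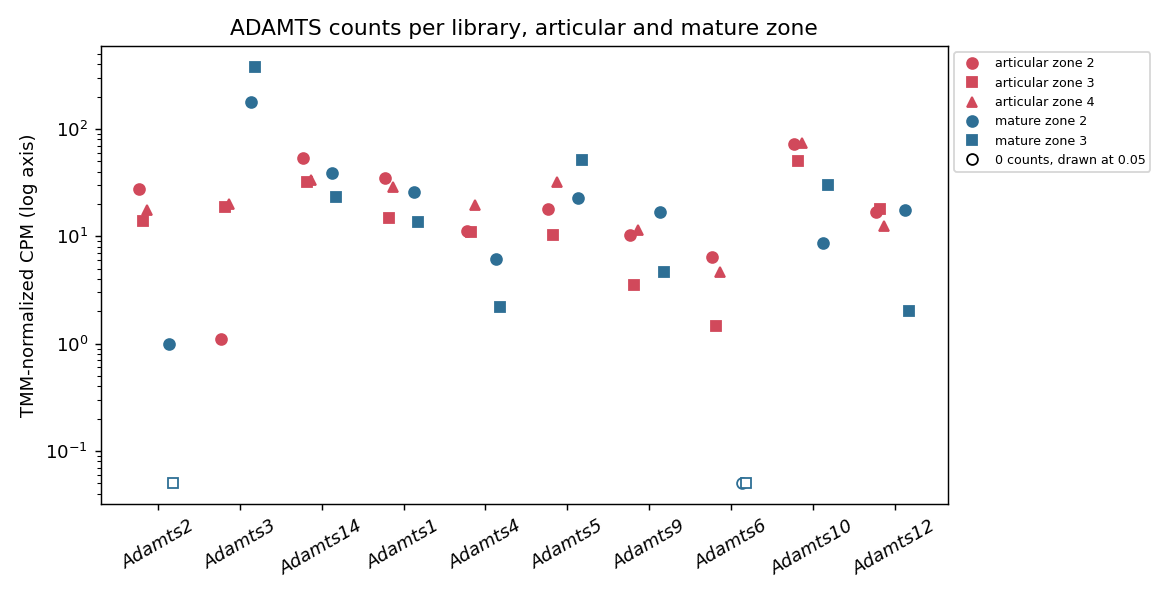
TMM-normalized CPM on a log axis for each of the 10 ADAMTS genes in each library, articular zone in red and mature zone in blue, with open symbols for 0 counts. Adamts2 lies between 13.9 and 27.7 CPM in the articular zone, against 0.986 CPM and 0 in the mature zone, and Adamts3 shows the opposite order, with 1.10 to 19.9 CPM against 177 and 381 CPM.

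Among the procollagen N-proteinases, Adamts2 was measured at 13.9 to 27.7 CPM in the articular zone and at or near 0 in the mature zone, while Adamts3 had its high values in the mature zone. The median level of all tested genes was 22.8 CPM. Adamts2 (ENSMUSG00000036545.8, chromosome 11, 50602084 to 50807573, plus strand) had 480, 220 and 352 counts in the articular zone against 15 and 0 in the mature zone. The lowest articular zone library stood above both mature zone libraries. This is 19.8 ± 7.11 CPM (SD, n = 3) against 0.493 ± 0.697 (SD, n = 2), a log2 fold change of 5.29 with an SE of 1.40 (edgeR adjusted p = 0.0932). Adamts2 is the enzyme whose loss in people causes the dermatosparactic form of Ehlers-Danlos syndrome. DESeq2 gave an adjusted p of 6.2e-05 for it. Without mature zone replicate 2, which leaves a mature zone library with no counts, edgeR gave 0.00700 and a fitted fold change that depends on the prior count and is no measured fold, and over the other 4 libraries left out in turn the adjusted p was 0.0645 to 0.270.

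Adamts3 (ENSMUSG00000043635.12, chromosome 5, 89677087 to 89883334, minus strand) had 19, 300 and 396 counts in the articular zone, against 2693 and 5343 in the mature zone. Articular zone 2 was far below the other articular zone libraries, and both mature zone libraries were above all of them. In CPM this is 13.3 ± 10.6 (SD, n = 3) against 279 ± 144 (SD, n = 2), a log2 fold change of -4.39 with an SE of 1.02 (edgeR adjusted p = 0.0817), or 20.9-fold lower in the articular zone. ADAMTS3 is known to cut type II procollagen and, with the cofactor CCBE1, to activate VEGF-C. Without articular zone replicate 2 the log2 fold change was -3.84 (SE 0.42) with an adjusted p of 0.0263 from edgeR, and without each of the other libraries the adjusted p was 0.125 to 0.199. With both replicate 2 libraries left out, a setting chosen after seeing the data, the log2 fold change was -4.29. That fit held 2 articular zone libraries and 1 mature zone library, so the spread within the mature zone was not measured. Limma-voom gave -5.07 (adjusted p = 0.0115) and DESeq2 -4.39 (adjusted p = 0.0106).

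Adamts14 was measured in both zones. It had 931, 509 and 673 counts in the articular zone, against 591 and 327 in the mature zone, and the zones overlapped after scaling, with 32.2 to 53.7 CPM against 23.3 and 38.8 CPM. The log2 fold change was 0.36 with an SE of 0.41 (edgeR adjusted p = 0.706), which does not show that the zones were equal.

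The balance within the N-proteinases can be read inside each library, where scaling between libraries plays no part. FPKM, which the authors scaled for gene length, is used to set levels of different genes side by side, and its lowest value is 0.1. The size of such a ratio depends on the gene lengths used. By counts per length of the merged GENCODE exons, a setting chosen after seeing the data, Adamts2 was well below Adamts14 in the articular zone. The values were 51.4, 23.6 and 37.7 counts per kb against 179, 97.9 and 129. The FPKM of Adamts2 was 0.904, 0.779 and 0.922 times that of Adamts14 in the articular zone, against 0.0496 and 0.0536 times in the mature zone. The zones did not overlap. On the log2 scale they differed by 4.07 between the zones (two-sided exact permutation test, p = 0.2, n = 3 and 2, the smallest p these libraries allow). Adamts2 in mature zone 3 had 0 counts and was at the lowest listed FPKM, so the spread within the mature zone was not measured. From raw counts with 0.5 added the difference was 6.27, so its size rests on how the 0 is treated. The ratio of Adamts2 to Adamts3 was 45.4, 2.30 and 2.97 in the articular zone, against 0.0195 and 0.00630 in the mature zone, a log2 difference of 9.26 with the same exact permutation p of 0.2. Here Adamts3 in articular zone 2 was also at the lowest listed FPKM, and raw counts with 0.5 added gave 11.75.

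**Figure D2:**
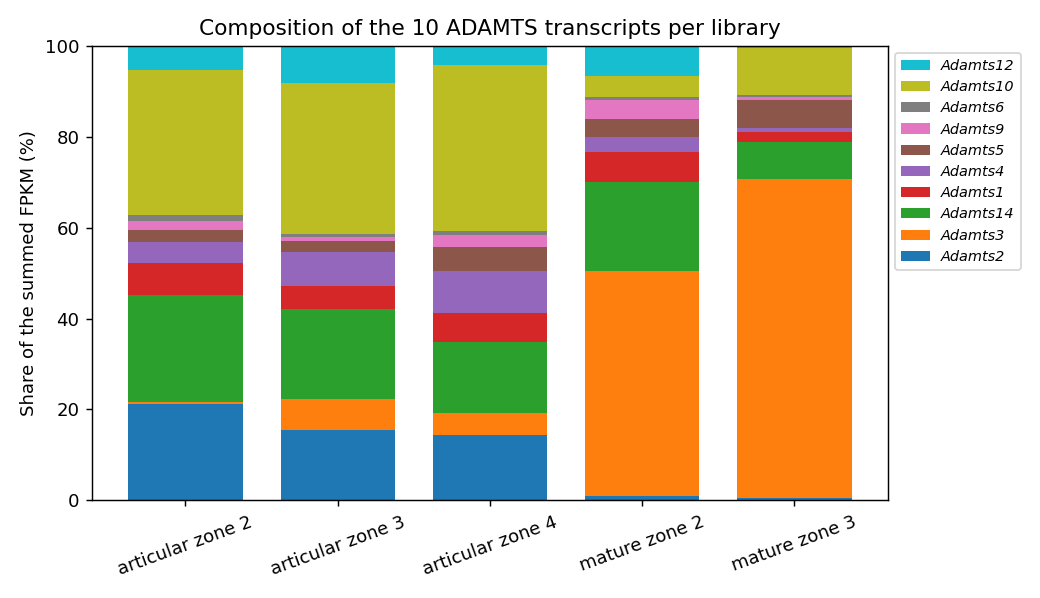
Share of each gene in the summed FPKM of the 10 ADAMTS genes, in percent, with a stacked bar for each library, articular zone libraries at the left. Adamts10 takes 31.9% to 36.5% in the articular zone libraries, and Adamts3 takes 49.6% and 70.2% in the mature zone libraries.

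The summed FPKM of the 10 genes overlapped between the zones, and different genes led it. The sums were 21.4, 14.98 and 21.9 FPKM in the articular zone, against 17.5 and 22.6 in the mature zone. In CPM, which is not scaled for gene length, the sums did not overlap. They were 253, 175 and 254 CPM in the articular zone, against 315 and 508 CPM in the mature zone. In FPKM, Adamts10 ranked first in all 3 articular zone libraries, followed by Adamts14 and Adamts2. In both mature zone libraries Adamts3 ranked first, at 8.68 and 15.9 FPKM. Without Adamts3 the other 9 genes summed to 21.3, 14.0 and 20.8 FPKM in the articular zone, against 8.82 and 6.74 in the mature zone. Adamts3 was taken out as the member highest in the mature zone of these same libraries, so nothing is read from the separation of the rest. The 3 N-proteinases made up 45.1%, 42.1% and 34.9% of the articular zone sums and 70.0% and 78.9% of the mature zone sums. Adamts3 carried that order, since Adamts2 and Adamts14 alone made up 44.7%, 35.3% and 30.1% in the articular zone against 20.4% and 8.69% in the mature zone. Sums, shares and ranks hold for the authors' FPKM and the gene lengths behind it. By counts per length of the merged GENCODE exons, a setting chosen after seeing the data, Adamts14 ranked first in articular zones 2 and 3 and Adamts10 in articular zone 4. Adamts2 then ranked 4, 7 and 7 in the articular zone libraries, and Adamts3 stayed first in both mature zone libraries.

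The promoters of Adamts2 and Adamts3 are printed because these genes had opposite orders in the zones. Both windows run from 250 bases before to 50 after the RefSeq start (GRCm38.p6), on the strand of the gene. They lie at chr11:50601835-50602134 (plus) and chr5:89883285-89883584 (minus). Capitals mark the GC box, GGGCGG on either strand.
Adamts2: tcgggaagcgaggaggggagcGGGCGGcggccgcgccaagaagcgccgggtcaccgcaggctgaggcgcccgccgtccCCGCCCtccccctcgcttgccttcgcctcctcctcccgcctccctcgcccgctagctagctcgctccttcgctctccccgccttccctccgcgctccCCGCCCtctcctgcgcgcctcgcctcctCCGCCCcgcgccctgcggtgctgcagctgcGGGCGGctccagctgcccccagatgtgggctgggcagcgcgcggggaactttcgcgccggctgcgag
Adamts3: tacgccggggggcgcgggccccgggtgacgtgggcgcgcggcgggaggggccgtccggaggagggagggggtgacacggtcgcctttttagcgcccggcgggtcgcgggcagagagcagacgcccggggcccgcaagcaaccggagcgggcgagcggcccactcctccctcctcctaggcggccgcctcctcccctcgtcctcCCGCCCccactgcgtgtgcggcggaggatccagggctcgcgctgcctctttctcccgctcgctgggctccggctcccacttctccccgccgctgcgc
Each window is 77.3% G and C, where the median of 32851 RefSeq promoter windows is 52.7%. The GC box occurs 5 times in the Adamts2 window, 1 time in that of Adamts3 and 7 times in that of Adamts14, and 35.7% of all windows hold it. The letters TATAAA (in 13.6% of all windows), CCAAT (37.4%), ACAAAG of the SOX type (18.7%), TGTGGT of the RUNX type (16.8%) and TGANTCA of the AP-1 type (7.81%) occur in neither window. Of the 10 members, 6 matched the promoter table.

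The proteases of aggrecan and versican showed smaller and less regular differences. Adamts4 had 194, 174 and 388 counts in the articular zone, against 94 and 31 in the mature zone. All articular zone libraries were higher, at 13.9 ± 4.86 CPM (SD, n = 3) against 4.19 ± 2.80 (SD, n = 2), a log2 fold change of 1.73 with an SE of 0.82 (edgeR adjusted p = 0.288). Adamts5, by contrast, had 309, 163 and 635 counts against 343 and 715, and the zones overlapped. Its log2 fold change was -0.87 with an SE of 0.58 (edgeR adjusted p = 0.464), and it was -0.17 without mature zone replicate 3.

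The balance of Adamts4 to Adamts5 separated the zones. The FPKM ratio was 1.76, 3.05 and 1.75 in the articular zone, against 0.824 and 0.130 in the mature zone. Adamts4 was thus above Adamts5 in all 3 articular zone libraries and below it in both mature zone libraries. The log2 difference of 2.69 between the zones had a two-sided exact permutation p of 0.2 (n = 3 and 2), again the smallest possible, and it was 1.36 without mature zone replicate 3 and 4.02 without mature zone replicate 2.

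Adamts1 and Adamts9 overlapped between the zones. Adamts1, which lies 53059 bases from Adamts5 on chromosome 16, had 604, 237 and 568 counts in the articular zone against 398 and 192 in the mature zone, and its log2 fold change was 0.39 with an SE of 0.54 (edgeR adjusted p = 0.769). Adamts9 had 180, 56 and 228 counts against 254 and 65, with a log2 fold change of -0.33 and an SE of 0.88 (edgeR adjusted p = 0.894), and 11.99% of its exon length overlaps genes on the opposite strand. For both genes the direction turned when a library was left out: the log2 fold change of Adamts1 was -0.00060 without mature zone replicate 3, and that of Adamts9 was 0.87 without mature zone replicate 2 and 0.05 without articular zone replicate 3. In the articular zone both genes were lowest in replicate 3.

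ADAMTS1 and ADAMTS9 are also made by endothelial cells, whose markers were read in the same libraries. The 7 markers summed to 122, 10.6 and 93.7 CPM in the articular zone, against 17.5 and 0.143 CPM in the mature zone. Of the 6 tested, edgeR called 1 higher in the articular zone (Emcn) and none lower, against 1.14% and 1.85% of all tested genes. Tie1, Emcn and Cldn5 had 0 counts in both mature zone libraries, and Tie1 and Cldn5 had 0 in articular zone 3. Markers of macrophages and monocytes, 7 genes, summed to 214, 15.5 and 92.6 CPM against 43.8 and 25.9 CPM. Within the articular zone both sums were highest in replicate 2 and lowest in replicate 3, as were the CPM of 4 of the 10 members (Adamts1, Adamts2, Adamts6 and Adamts14). In all, 8 of the 10 members were lowest in replicate 3, the exceptions being Adamts3 and Adamts12. The share of all tested genes with these orders is not given, so nothing is read from the counts. Sums of osteoclast, erythroid and Schwann cell markers were also highest in replicate 2 and lowest in replicate 3. Those of articular surface, chondrocyte, hypertrophic chondrocyte, osteoblast and smooth muscle markers were lowest in replicate 2. The part of such cells in the values of the proteases was not tested.

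Adamts10 and Adamts6, the pair linked to fibrillin, were both higher in every articular zone library. Adamts10 (ENSMUSG00000024299.17, chromosome 17, 33524204 to 33553782, plus strand), whose human counterpart is mutated in Weill-Marchesani syndrome, had 1271, 800 and 1468 counts in the articular zone, against 133 and 420 in the mature zone. It averaged 65.9 ± 13.3 CPM (SD, n = 3) against 19.3 ± 14.996 (SD, n = 2). The log2 fold change was 1.77 with an SE of 0.54 (edgeR adjusted p = 0.125), or 3.41-fold. DESeq2 gave an adjusted p of 0.0181. Without mature zone replicate 3 the log2 fold change was 2.91 (edgeR adjusted p = 0.0387), and without mature zone replicate 2 it was 1.14 (0.116).

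Adamts6 had 112, 23 and 93 counts in the articular zone, against 0 in both mature zone libraries. It was at least 41.9-fold higher in the articular zone, counted against 3 counts over the summed mature zone libraries, a bound that covers counting error only (adjusted p = 0.112 from edgeR, 0.00187 from DESeq2). The bound was 31.7-fold without articular zone replicate 2, 53.7-fold without replicate 3 and 39.7-fold without replicate 4. The level of Adamts6 was low, 1.45 to 6.46 CPM, and 0 counts in the mature zone were not rare in a range of depth around it. Of 3149 tested genes with summed articular zone counts of 86 to 561, 9.05% had none in the mature zone. The range was set by the sums of Adamts6, Adamts15 and Adamts20, which are themselves at 0 there. A share at the depth of Adamts6 alone was not computed. More genes were detected in the articular zone in general, 13538 to 14650 with at least 1 count, against 12357 and 13121 in the mature zone.

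**Figure D3:**
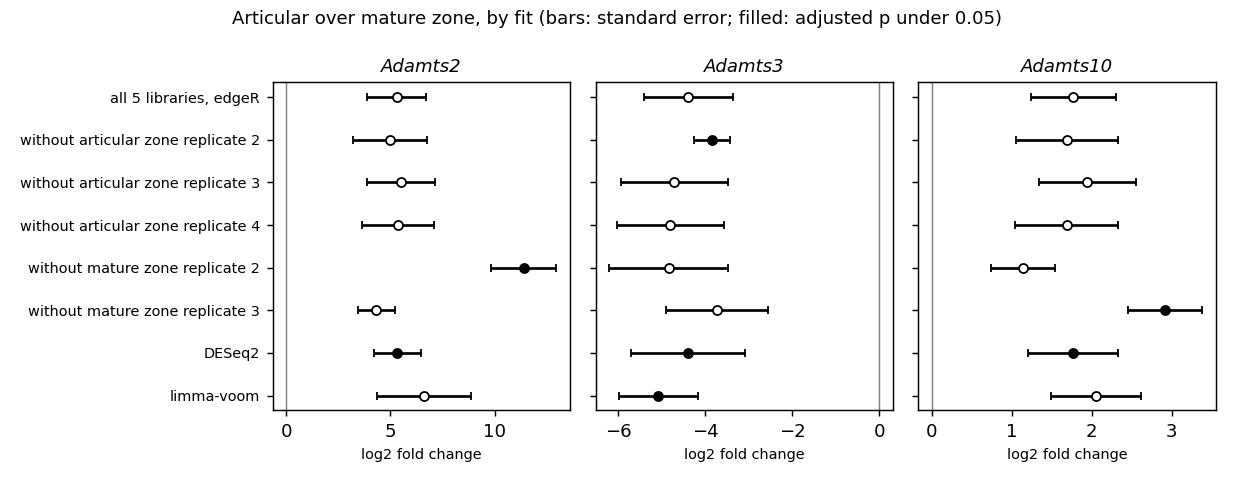
Fitted log2 fold change of the articular over the mature zone, with bars of 1 SE, for Adamts2, Adamts3 and Adamts10 in edgeR with all 5 libraries, in edgeR with each library left out in turn, in DESeq2 and in limma-voom, with filled points for an adjusted p under 0.05. The sign was the same in each of these fits, and the threshold was passed in 2 of 8 for Adamts2, 3 of 8 for Adamts3 and 2 of 8 for Adamts10.

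Adamts12 depended on a single library. It had 290, 283 and 246 counts in the articular zone, against 266 and 28 in the mature zone, so mature zone 2 was at the level of the articular zone and mature zone 3 far below. The log2 fold change was 0.68 with an SE of 0.89 (edgeR adjusted p = 0.749), 2.97 without mature zone replicate 2 and -0.16 without mature zone replicate 3.

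The other ADAMTS proteases held further genes that had counts in the articular zone alone. Of 9 in the table, 7 were tested and none was called by edgeR, while 3 had an unadjusted p under 0.05 (Adamts15, Adamts18 and Adamts20), as had 20.1% of all tested genes. DESeq2 called 1 (Adamts15), against 13.7% of all tested genes, and limma-voom called 0. Adamts15 and Adamts20 passed the count filter through the articular zone alone, so nothing is read from their direction in these counts. Adamts15, a versican-cutting protease, had 386, 18 and 157 counts in the articular zone, against 0 in both mature zone libraries, at least 103-fold higher (edgeR adjusted p = 0.0753) and at least 47.8-fold without articular zone replicate 2, which held most of its counts. Adamts20, another versican-cutting protease, had 43, 16 and 27 counts against 0 and 0, Adamts8 had 94, 0 and 13 against 0 and 0, and Adamts19 had 70, 4 and 0 against 0 and 0. Genes with 0 in both mature zone libraries made up 3.61% of all tested genes. Among tested genes with summed articular zone counts of 86 to 561, the share was 9.05%. Adamts15, with 561, lies at the top of this range, and a share at its own depth was not computed. Adamts19, with 74 such counts, was not tested. Adamts15, Adamts8, Adamts16 and Adamts20 were highest in replicate 2 and lowest in replicate 3 of the articular zone. The endothelial and macrophage sums had this order too, and their part here was not tested. Adamts7 and Adamts18 were instead lowest in replicate 2, and Adamts17 and Adamts19 in replicate 4. Adamts7 had 35, 102 and 177 counts in the articular zone against 250 and 8 in the mature zone (log2 fold change -0.55, SE 1.31, adjusted p = 0.880 from edgeR). Adamts18 was the most abundant of this group and pointed the other way, with 47.8 ± 11.6 CPM in the articular zone (SD, n = 3), against 81.9 ± 4.75 in the mature zone (SD, n = 2) (log2 fold change -0.78, SE 0.31, adjusted p = 0.211 from edgeR). Adamts16 had 587, 64 and 242 counts against 131 and 0, with an adjusted p of 0.589 in edgeR and of 0.0305 without mature zone replicate 2, Adamts17 had 164, 292 and 125 against 154 and 201, and Adamts13, which cuts von Willebrand factor in blood, had none in any library.

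The substrates, relatives and regulators of the family were taken from 7 lists with 46 genes in the table. Of 38 tested, edgeR called 5 higher and 4 lower in the articular zone, against 1.14% and 1.85% of all tested genes. These lists were chosen with earlier results of the data known, so nothing is read from their counts. By list, 1 of 4 ADAMTS-like proteins was higher, as were 1 of 5 procollagens and 1 of 4 genes of inhibition and uptake. Of 3 proteoglycans that bind hyaluronan 1 was higher and 1 lower, of 7 other substrates 1 higher and 2 lower, and of 8 genes of activation and modification 1 lower. The ADAMTS-like proteins have the repeats but not the protease domain, and Adamtsl1 was the called gene of this list, with 599, 392 and 769 counts in the articular zone against 96 and 72 in the mature zone, well apart (log2 fold change 2.51, SE 0.50, adjusted p = 0.0418 from edgeR). Adamtsl4, a partner of fibrillin, was at 57.4 ± 15.4 CPM (SD, n = 3) against 54.7 ± 25.8 (SD, n = 2).

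The proteoglycan substrates divided between the zones. Aggrecan (Acan) was at 901, 1148 and 1060 CPM in the articular zone against 3218 and 4047 in the mature zone, and versican (Vcan) at 350, 273 and 287 CPM against 151 and 113. Acan was lower (log2 fold change -1.81, SE 0.18, adjusted p = 0.00670 from edgeR) and Vcan was higher (1.20, SE 0.23, adjusted p = 0.0336) in the articular zone. Among other substrates, Comp and Thbs1, the thrombospondin 1 gene, were lower in the articular zone, with log2 fold changes of -5.97 (SE 0.57) and -4.23 (SE 0.36). The small proteoglycan gene Dcn was higher (1.14, SE 0.17). The adjusted p of these genes was 0.00580, 0.00487 and 0.0163 in edgeR. Fbn1, a fibrillin gene, had 2678, 794 and 1496 counts in the articular zone, against 327 and 14 in the mature zone. Fbn2, the other fibrillin gene, had 2700, 702 and 2426 counts against 253 and 0. The zones did not overlap for either, and neither passed (adjusted p = 0.171 and 0.294 from edgeR). Without mature zone replicate 2, where mature zone 3 alone stands for its zone, the adjusted p was 0.00700 and 0.00541. For Fbn1, 20.1% of the exon length is shared with an opposite-strand gene.

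Procollagen genes had their own order beside the N-proteinases. Col2a1, the type II chain, had 875, 8602 and 8121 counts in the articular zone against 163765 and 291625 in the mature zone (log2 fold change -5.56, SE 1.11, adjusted p = 0.0896 from edgeR). Without articular zone replicate 2 the adjusted p was 0.0117, and DESeq2 gave 4.1e-08. As with Adamts3, articular zone 2 held the lowest value and mature zone 3 the highest. This order was not particular to Adamts3 and Col2a1. Acan, Comp, Thbs1 and the chondrocyte markers Col9a1, Hapln1 and Matn3 had it too, while the markers Sox9 and Matn1 did not. Col3a1, the type III chain, was higher in the articular zone, with 12157 ± 723 CPM (SD, n = 3) against 6840 ± 374 (SD, n = 2) (log2 fold change 0.83, SE 0.14, adjusted p = 0.0263). Col1a1 and Col1a2, the chains of type I collagen, were abundant in both zones, with log2 fold changes of -0.23 (SE 0.19) and -0.07 (SE 0.16).

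**Figure D4:**
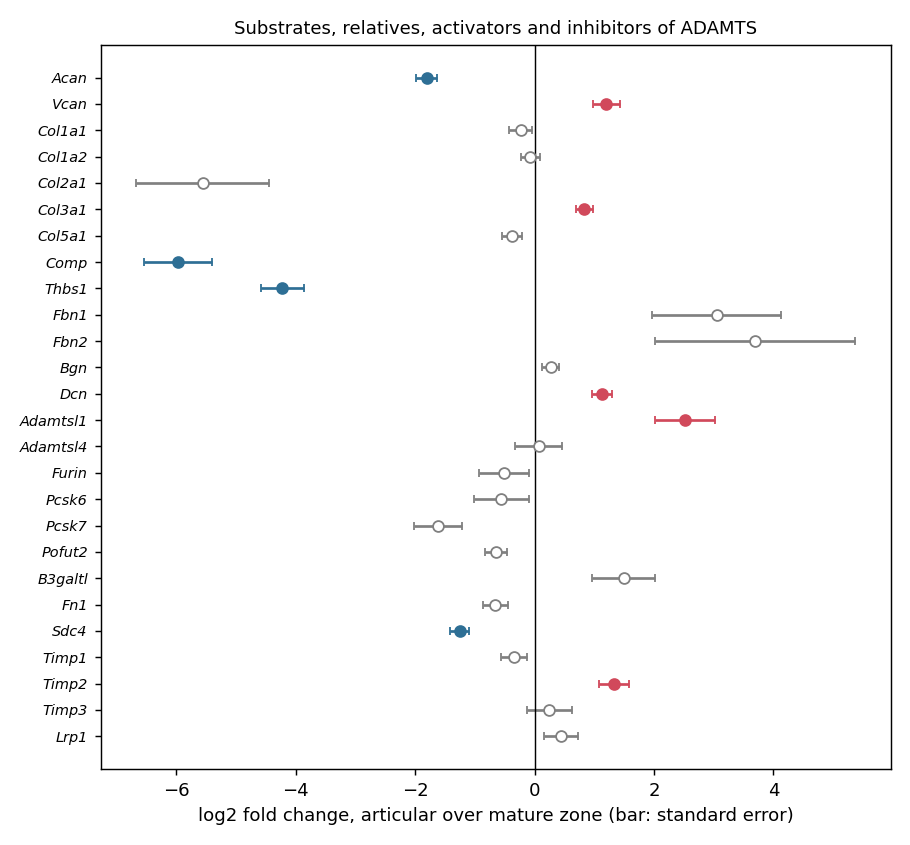
Fitted log2 fold change of the articular over the mature zone, with bars of 1 SE, for 26 substrates, relatives, activators and inhibitors of the ADAMTS family, filled and coloured where edgeR's adjusted p was under 0.05. Acan, Comp, Thbs1 and Sdc4 are lower and Vcan, Col3a1, Dcn, Adamtsl1 and Timp2 are higher in the articular zone.

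Of the genes that activate or modify the proteases, Sdc4 was lower in the articular zone. It encodes syndecan-4, a membrane proteoglycan known in mice to promote ADAMTS5 activity, and had 1130, 1376 and 1296 CPM against 2960 and 3082 (log2 fold change -1.25, SE 0.16, adjusted p = 0.0107 from edgeR). Furin, which removes propeptides, was at 20.1 ± 1.82 CPM (SD, n = 3) against 28.7 ± 5.04 (SD, n = 2) and did not pass (adjusted p = 0.560). Among the other convertase genes, Pcsk7 was lower in every articular zone library, at 15.5, 11.8 and 22.1 CPM against 55.0 and 45.8. It did not pass (log2 fold change -1.62, SE 0.41, adjusted p = 0.0818 from edgeR), and Pcsk5 and Pcsk6 overlapped between the zones. Pofut2 and B3galtl, which add and extend fucose on the thrombospondin repeats, did not pass either, with log2 fold changes of -0.65 for Pofut2 (SE 0.18) and 1.49 for B3galtl (SE 0.53). Ccbe1 had 3, 0 and 0 counts in the articular zone, against none in the mature zone.

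Of the inhibitors, Timp2 was higher in the articular zone, at 630, 621 and 596 CPM against 311 and 179 (log2 fold change 1.33, SE 0.25, adjusted p = 0.0341 from edgeR). Timp3, the main tissue inhibitor of ADAMTS4 and ADAMTS5, was at 360 ± 161 CPM (SD, n = 3) against 303 ± 29.2 (SD, n = 2), with a log2 fold change of 0.25 (SE 0.37). The uptake receptor gene Lrp1 had one of 0.44 (SE 0.29). When libraries were left out in turn, Thbs1 passed in all 5 fits, and Acan, Comp and Sdc4 lost their call without articular zone replicate 4 alone (adjusted p = 0.0820, 0.0670 and 0.0943 from edgeR). Vcan, Col3a1, Dcn, Timp2 and Adamtsl1 kept theirs without mature zone replicate 2 alone, with adjusted p of 0.0523 to 0.206 in the other 4 fits.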

How the data were processed

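Frozen sections were stained, the zones were captured by laser, and poly(A) RNA was sequenced from single-end libraries. The authors trimmed reads with Trimmomatic 0.32 and mapped them to mm10 with SHRiMP. The sources used here do not name the counting tool or say whether strand was used. Raw counts of reads per gene symbol were deposited without normalization. FPKM, as deposited, corrects for gene length and mapped fragments and was given a lowest value of 0.1 by the authors. A deposited table of the authors' DESeq comparison holds fold changes and p-values and was not used.

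A gene was tested where 2 or more libraries had 10 or more counts, which kept 13119 of 22609. The test was run with edgeR 4.0.16 in R 4.3.3 (TMM, glmQLFit robust, glmQLFTest, zone alone, 3 residual degrees of freedom, Benjamini-Hochberg over all tested genes, threshold 0.05). The SE is the log2 fold change over the square root of F. Alternatives used DESeq2 1.42.0, limma 3.58.1, other normalizations and filters, a replicate block, FPKM, and each library left out. The members and lists were chosen with earlier results of these data known. All 10 members are named; of each list, the called genes or the most abundant are named. Other list genes, among them Fbn1, Fbn2, Col1a1, Col1a2, Col2a1, Furin, Pcsk5, Pcsk6, Pcsk7, Pofut2, B3galtl, Ccbe1, Timp3, Lrp1, Adamts8, Adamts13, Adamts15, Adamts19, Adamts20 and Adamtsl4, were chosen for their role after values were seen. Tables and figures were made with Python 3.11.15.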

Additional observations from a re-analysis of the deposited data

How the results depend on the processing

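The number of genes called over the whole table and that of members both depended on the setting. Against 393 genes and 0 members, 593 genes and 1 member (Adamts2) were called with no low count filter, 1802 and 4 with DESeq2, and 4 and 0 with limma on log2(FPKM + 1) without a filter. With a mean FPKM of at least 1, which kept 5 of the 10 members, log2(FPKM + 1) gave 344 of 9609 genes and 2 members (Adamts2 and Adamts3) and log2(FPKM + 0.1) gave 123 genes and 1 member (Adamts2). Limma-voom gave 411 genes and 1 member (Adamts3). Leaving out each library in turn gave 13 to 1289 genes and 0 to 1 members, in a fit that assumes a lone mature zone library to vary like the others. With both replicate 2 libraries left out, a setting chosen after seeing the data, 1591 genes and 2 members (Adamts2 and Adamts3) were called. The replicate number as a block gave 226 genes and 1 member (Adamts3, adjusted p = 0.00937 from edgeR). Under it Vcan, Col3a1, Dcn, Timp2 and Adamtsl1 had an adjusted p of 0.0520 to 0.149, and Col2a1 (0.00387) and Fbn1 (0.0320) passed. The labels number the biological replicates alike in both zones without saying what equal numbers share. The correlation of same-numbered deviations was 0.145 for replicate 2 and 0.131 for replicate 3, from only 2 pairs. The deviations of the 2 mature zone libraries mirror each other, so these values cannot decide whether the libraries are paired. Skeletal muscle sums were high in both replicate 2 libraries, at 949 and 814 CPM, and what these libraries share was not tested. The pairing was not used in the main fit. Of 148 refits of a member's fold change, 128 kept its direction and its side of the threshold, 15 gained a call and 5 turned round. These were Adamts1 (-0.00060, against 0.93 without mature zone replicate 2) and Adamts12 (-0.16, against 2.97 without mature zone replicate 2) without mature zone replicate 3, and Adamts9 without mature zone replicate 2 (0.87), without articular zone replicate 3 (0.05) and without both replicate 2 libraries (0.70), against -0.98 without mature zone replicate 3. Under the filter of 10 counts in every library Adamts2 and Adamts6 gave no value. The 3 ratios within a library kept their direction in all alternatives, and their size depended on the lowest FPKM where a gene had none or few counts.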
